A study of Mus with 50 samples.

Results

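Chemokines are small secreted proteins that draw leukocytes along a gradient and are named by the spacing of their first cysteines as CC, CXC or CX3C. They bind receptors with 7 membrane passes on the leukocyte, which signal through inhibitory G proteins. In liver, sinusoidal endothelium, Kupffer cells, hepatocytes and bile duct cells are known sources of chemokines, and the receptors are carried largely by resident and passing leukocytes.

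The set described here held every gene whose symbol begins with Ccl, Cxcl, Ccr or Cxcr and a digit, apart from 1 CXC ligand, with Cx3cl1, Cx3cr1 and Xcr1 added. It comprised 50 of the 22180 named genes measured, 32 ligands and 18 receptors, each read from the probe set of that gene alone with the highest median. A further 7 symbols (Ccl19, Ccl19-ps1, Ccl21a, Ccl21b, Ccl21c, Ccl21d and Ccl27b) lay only on probe sets shared with other genes and were not analysed here. The samples were livers of 50 female mice from a C57xFVB backcross, 1 array each. All carried the MMTV-Neu transgene, in which a mammary tumour virus promoter drives the Neu protooncogene mainly in mammary epithelium, and all were labelled with breast cancer as a comorbidity. The mice had been taken from the extremes of a modelled ageing grade, but the labels do not place any mouse at either extreme and give no age, so the livers form 1 group and no contrast of the extremes was made. Mice are named by the animal number in their labels.

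The arrays had closely matched medians, between 3.27 and 3.34 on the log2 scale. All 12 measured hepatocyte markers lay above the array median, although the extraction note speaks of purified cell populations. Animals 64, 84, 87 and 235 stood apart in their correlation with the other arrays, so results are given with and without these 4 mice. Animal 64 had the highest erythroid precursor score (5.68) and the lowest hepatocyte score (-3.49), where a score is the mean over a marker list of each gene's level in SD units. Animal 87 had the highest T and NK cell score (3.81), animal 235 the highest Kupffer cell score (3.59) and animal 84 the highest type I interferon response score (2.38). Pancreatic acinar or mammary epithelium genes were far out in 7 other livers (animals 24, 96, 142, 149, 161, 170 and 301), with the highest acinar score in animal 96 (4.90) and the highest mammary score in animal 161 (4.26).

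Of the 50 genes, 28 had a median over mice above the array median of 3.31 log2 units, 20 ligands and 8 receptors. Over all genes the share was 56.7%, so the set was not more often above it than genes at large. The receptor Cxcr1 lay just inside with a median of 3.31, and Ccl3 just outside with 3.23. Probe sets differ in how strongly they bind, so their levels are given per gene and are not amounts that can be set against each other.

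Ccl9, a CC ligand of Ccr1 made by myeloid cells, ranged from 7.82 in animal 64 through a median of 9.75 to 10.79 in animal 235. Cxcl12, which retains Cxcr4-bearing cells and is made by stromal and endothelial cells, ranged from 6.88 to 9.44 with a median of 9.0. Its 46 values outside the mice that stood apart had an SD of 0.21, against 0.42 over all 50. Animals 64 and 235 lay at the bottom of Cxcl12, well under the remaining livers. The epithelial ligands Ccl25 (4.01 to 5.27, median 4.59) and Ccl20 (3.21 to 4.09, median 3.58), and the neutrophil attractant Cxcl2 (3.05 to 3.96, median 3.45), stayed within narrow ranges.

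The inflammatory ligands spread widely. Cxcl9, a ligand of Cxcr3 induced by interferon gamma, had its lowest value of 4.70 in animal 84, a median of 7.48 and its highest of 11.25 in animal 10, followed by 10.28 in animal 87 and 10.02 in animal 270. Ccl5, made by T and NK cells and by other activated cells, ran from 4.62 through 5.88 to 11.15 in animal 87, with 9.86 in animal 10 and 8.68 in animal 235. High Cxcl9 and high Ccl5 thus met in animals 10 and 87. Cxcl1, a neutrophil attractant that hepatocytes can make, ran from 4.55 through 5.94 to 9.34 in animal 73, with 8.88 in animal 179 and 8.47 in animal 84. For Cxcl9 the same livers read 7.58, 5.02 and 4.70, the last of them the lowest of all. Cxcl11, a further Cxcr3 ligand whose gene RefSeq lists for C57BL/6J (GRCm38.p6) as a transcribed pseudogene, ran from 3.69 through 4.79 to 6.16.

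Cxcl16, a membrane-bound ligand of Cxcr6 made by macrophages and endothelium, ran from 5.89 through 6.69 to 9.25 in animal 235. Ccl6, a myeloid CC ligand, ran from 4.94 through 5.99 to 9.93 in the same liver, with 7.56 in animal 87 next. Ccl24, an eosinophil attractant that binds Ccr3, reached 7.54 in animal 235 over a median of 5.11, and no other liver exceeded 5.76. The monocyte attractants Ccl7 and Ccl2, ligands of Ccr2, peaked there too, at 7.02 and 6.72 over medians of 4.46 and 3.65, with no other liver above 5.11 for Ccl7 or 4.75 for Ccl2. Animal 235 alone therefore held the top of these 5 ligands.

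Further ligands were high in single livers. Ccl28, an epithelial ligand of Ccr10, reached 7.25 in animal 84 over a median of 3.88, whereas the next liver, animal 96, read 4.33. Cx3cl1, the CX3C ligand fractalkine, reached 5.26 in animal 161 and 4.66 in animal 84 over a median of 3.55. Ccl4, a macrophage and T cell product, stayed between 3.10 and 4.11. Ccl27a ran from 4.06 to 5.31, but its 2 probe sets correlated weakly over mice (r = 0.106), and the one used gave the same values as 2 probe sets shared with near-identical copies, so its identity is uncertain.

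Among receptors, Ccr3, an eosinophil receptor, ran from 3.36 in animal 91 through a median of 5.05 to 6.78 in animal 235. The fractalkine receptor Cx3cr1 of monocytes ran from 3.64 through 4.34 to 6.42 in animal 235, and every other liver was at or below 4.98. The neutrophil receptor Cxcr2 reached 6.03 in animal 229 over a median of 4.15. The lymphocyte receptors peaked in animal 87, with the highest T and NK cell score, or animal 10, with the highest B and plasma cell score. Ccr7, which guides naive T cells and mature dendritic cells, read 5.72 in animal 87. Cxcr3, of activated T and NK cells, read 5.26 in animal 87, and the B cell receptor Cxcr5 read 6.04 in animal 10. The medians of Ccr7, Cxcr3 and Cxcr5 were 3.91, 3.72 and 3.80.

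Below the array median lay 22 genes, of which 16 never rose by more than 1 log2 unit over their median in any liver. The other 6 were raised in a few livers. Ccl8, a monocyte attractant, had a median of 2.79 and read 6.18 in animal 10, 6.09 in animal 235 and 5.61 in animal 87. Ccl3, a macrophage and T cell product, read 6.34, 5.45 and 4.59 in animals 235, 10 and 87 over a median of 3.23. In animal 235 alone, Ccl12 read 5.61 and the monocyte receptor Ccr1 also 5.61, while no other liver passed 2.95 for Ccl12 or 3.56 for Ccr1. The receptors Ccr2 of inflammatory monocytes and Cxcr6 of tissue T and NK cells were highest in animal 87, at 4.4 and 4.65, over medians of 2.94 and 2.89.

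**Figure D1:**
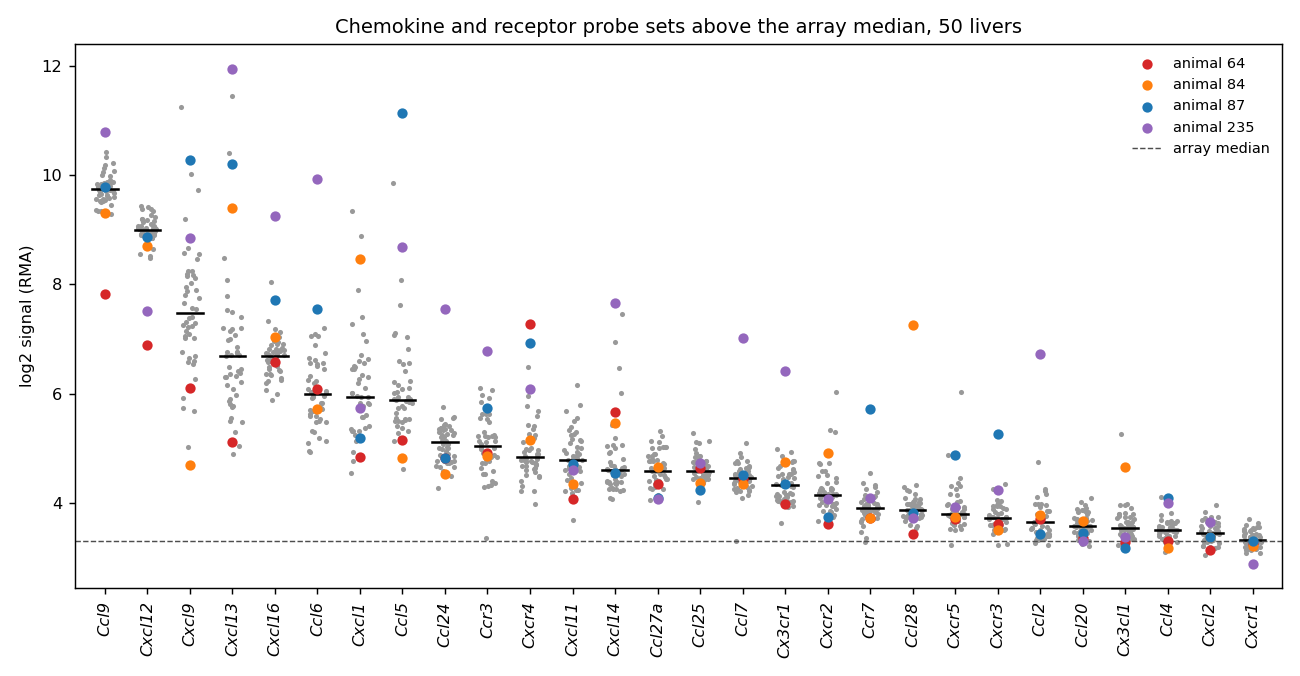
Log2 signal (y axis, RMA) of the 28 genes above the array median (x axis, ordered by median), with 1 point per liver, black bars at medians, a dashed line at the array median of 3.31 and the 4 mice that stood apart in colour. Animal 235 sits at the top of 10 of the 28 genes (a count not made over all genes), and Cxcl9, Cxcl13, Cxcl1 and Ccl5 spread over several log2 units.

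Of all 50 genes, 22 had their highest value in 1 of the 4 mice that stood apart: 14 in animal 235, 6 in animal 87 and 1 each in animals 64 and 84. Animal 10, which did not stand apart, held 5. For 12 genes the highest liver exceeded the next by over 1 log2 unit. The 4 mice had been picked by their correlation over genes above the array median. These counts were not made over all genes, so they do not show a trait particular to this set. Among the 28 genes above the array median, 11 (39.3%) had an SD over 0.5 log2 units, beside 12.1% of the genes above it in general. Without the 4 mice the counts were 7 of 28 (25%) beside 5.47%, and the median SD was 0.32 beside 0.23.

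Cxcl13, Cxcr4 and Cxcl14 each split into 5 high and 45 lower livers. Cxcl13, the B cell attractant that binds Cxcr5, read 11.95 in animal 235, 11.45 in animal 10, 10.40 in animal 117, 10.20 in animal 87 and 9.41 in animal 84, while the next liver read 8.49. Its median was 6.70 and its lowest value 4.90. The B and plasma cell scores of these 5 livers were not alike: 3.47 in animal 10, 0.51 in animal 235, -0.29 in animal 117, -0.47 in animal 87 and -0.98 in animal 84, the lowest of all. Cxcr4, the receptor of Cxcl12 on most leukocytes and blood progenitors, read 7.27 in animal 64, 6.92 in animal 87, 6.49 in animal 161, 6.09 in animal 235 and 5.95 in animal 10, with 5.78 next. These 5 included the liver with the highest erythroid precursor score (animal 64) and the one with the highest neutrophil score (animal 161, 2.63). Cxcr4 met the rule for a split only narrowly, with a BIC gain of 10.5 (over 10 needed) and components 4.13 SD apart (4 needed). Cxcl14, a ligand made by epithelial and stromal cells, read 7.67 in animal 235, 7.45 in animal 229, 6.95 in animal 179, 6.47 in animal 257 and 6.02 in animal 289, with 5.66 next and a median of 4.60. The high livers of these genes overlapped in part: animal 235 was high for each of them, and animals 10 and 87 for Cxcl13 and Cxcr4. The part of those cell type scores in the splits was not tested. Because of the splits, relations of these genes are given within their 45 lower livers, and counts of relations refer to the other 47 genes. Some of those 47 had components further apart than Cxcr4 but fewer than 5 high livers, so the rule left them unsplit. They included Ccl8 (18.5 SD apart, 3 high livers), Ccl3 (7.13 SD, 3), Ccr2 (6.75 SD, 4) and Ccl5 (5.32 SD, 3). The T and NK cell (7.37 SD, 3), monocyte and recruited macrophage (6.62 SD, 4) and dendritic cell (6.01 SD, 2) scores were unsplit likewise. Their pooled r values therefore mix a few high livers with the rest.

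**Figure D2:**
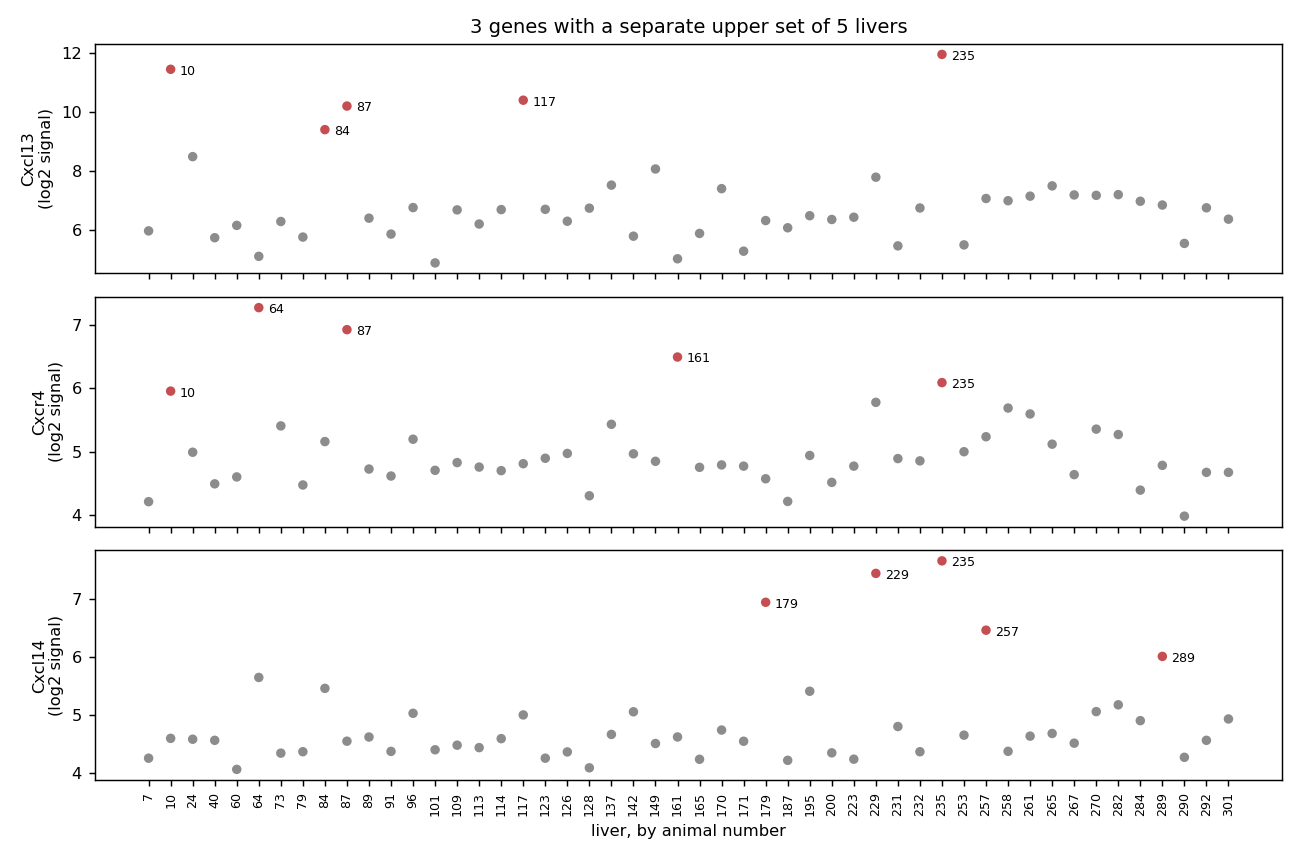
Log2 signal of Cxcl13, Cxcr4 and Cxcl14 (y axes) in each liver, ordered by animal number (x axis), with the upper 5 livers of each gene in red and labelled. The gap below the upper set is widest for Cxcl13 (9.41 against 8.49), and the 5 high Cxcl14 livers all carry animal numbers from 179 upward.

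Levels were then set against 12 scores of marker lists, for cell types and for interferon and acute phase responses, in 1 limma fit per score over all genes. None of the lists held a chemokine or receptor of the set. Markers above the array median were 4 of 8 for dendritic cells, 9 of 16 for T and NK cells, 6 of 14 for neutrophils and 4 of 8 for cholangiocytes. Those scores thus rest in part on genes near background, while in the remaining lists most markers lay above it. In all, 600 relations were computed, and a relation was called at a Benjamini-Hochberg adjusted p below 0.05 over all genes. Scores of several immune lists were high in the same livers (animals 10, 87 and 235), so the relations to different lists are not separate evidence. Neither lymphocytes nor macrophages were counted, and in bulk liver RNA fewer cells of a type and less RNA per cell cannot be told apart.

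With the T and NK cell score, 12 of 47 genes rose and none fell (limma; background 4.29% of all genes higher and 0.519% lower). When the 4 mice were left out 9 rose and none fell (background 2.92% and 0.275%), of which 8 were among the 12, and leaving out animal 87 alone gave 18. Where a single mouse was left out or ranks were used, here and below, the share over all genes is not given. Such counts describe how far the calls depended on the setting, not a trait of the set. Ccl5 had the closest relation of all, with r = 0.902 (permutation p = 1e-05, the smallest that 100000 permutations can give) and rho = 0.679 (permutation p = 1e-05). Its r was 0.777 without the 2 livers farthest out and 0.822 without the 4 mice, and between 0.852 and 0.949 within each stretch of animal numbers (7 to 79, 84 to 128, 137 to 235 and 253 to 301). For Cxcl9, r was 0.685 and rho 0.681 (both permutation p = 1e-05), with 0.627 without the 2 farthest livers, 0.733 without the 4 mice and 0.671 to 0.962 within stretches. Cxcr3 gave r = 0.829 (permutation p = 1e-05) and rho = 0.488 (permutation p = 3.60e-04), with r = 0.567 without the 2 farthest livers, 0.599 without the 4 mice and 0.373 to 0.953 within stretches. The adjusted p values from limma were 7.14e-17 for Ccl5, 1.46e-06 for Cxcl9 and 4.35e-11 for Cxcr3.

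The other genes that rose with the T and NK cell score were Cxcl16, Ccl6, Ccl4, Ccl3 and Ccl8 among ligands and Ccr7, Cxcr5, Ccr2 and Cxcr6 among receptors. For Ccr7, r fell from 0.734 to 0.266 without the 2 farthest livers and the call was lost without the 4 mice (limma adjusted p = 0.0878). Ccl8 had r = 0.819 but rho = -0.006, since it was high in 3 livers and near its median elsewhere. Of these, animal 10 remains when the 4 mice are left out, so the call kept there leans on that liver. Ccl6, Ccl4 and Cxcr6 also lost the call without the 4 mice, where limma's adjusted p was 0.193, 0.0715 and 0.0605.

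The interferon gamma response score, from genes such as the guanylate-binding proteins and Irgm1, gave 11 of 47 genes higher and none lower (limma; background 3.25% higher and 0.153% lower). Leaving out the 4 mice gave 10 (background 3.10%), all of them among the 11, and leaving out animal 10, the liver with the highest score (2.93), gave 5. Cxcl9 had r = 0.727 and rho = 0.691 (both permutation p = 1e-05), with r = 0.642 without the 2 farthest livers, 0.728 without the 4 mice and 0.462 to 0.964 within stretches (limma adjusted p = 3.57e-07). Ccl5 followed with r = 0.712 and rho = 0.654 (both permutation p = 1e-05), 0.572 without the 2 farthest livers and 0.357 to 0.958 within stretches (limma adjusted p = 1.02e-06). Cxcr6, at or below the array median in most livers, had r = 0.593 (permutation p = 1.40e-04) and rho = 0.650 (permutation p = 1e-05), and r = 0.591 without the 2 farthest livers and 0.451 to 0.809 within stretches (limma adjusted p = 3.70e-04). For Cxcl11, r was 0.538 (permutation p = 8e-05) and rho 0.452 (permutation p = 0.00116), with r = 0.458 without the 2 farthest livers and 0.149 to 0.964 within stretches (limma adjusted p = 0.00259). Cxcl16, Cxcr5, Cxcr3, Ccl4, Ccl3, Ccr2 and Ccl8 were the others.

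With the type I interferon response score, from genes such as Usp18 and Isg15, limma called none of the 47 genes (background 1.22% higher and 0.271% lower), while 7 had an unadjusted p below 0.05 and ranks gave none. The neutrophil score split the livers into 9 high and 41 lower, and within the 41 limma called none of the 47 genes (background 0.00902% higher), with 9 at an unadjusted p below 0.05 and none by ranks. That fit called 2 of all genes and left out the 9 high livers. These held the 3 highest values of the neutrophil receptor Cxcr2: 6.03 in animal 229, 5.33 in animal 282 and 5.29 in animal 161, with neutrophil scores of 1.71, 1.51 and 2.63. The remaining 6 high livers had Cxcr2 levels from 3.62 to 4.71, over a median of 4.15 in all livers. Whether Cxcr2 follows the neutrophil score across both sets of livers was therefore not tested.

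The Kupffer cell score, over resident macrophage genes such as Clec4f and Vsig4, gave 14 genes higher and 1 lower (limma; background 5.85% higher and 2.71% lower). Animal 235 carried much of this: without it 4 genes were called in all, and without the 4 mice 4 were higher and 1 lower (background 3.25% and 0.695%). Those 4 were Cxcl16, Ccl6, Ccl24 and Ccr3. For Cxcl16, r was 0.792 and rho 0.641 (both permutation p = 1e-05), with 0.583 without the 2 farthest livers, 0.717 without the 4 mice and 0.711 to 0.903 within stretches (limma adjusted p = 6.25e-10). The eosinophil receptor Ccr3 had r = 0.710 and rho = 0.630 (both permutation p = 1e-05), 0.542 without the 2 farthest livers, 0.646 without the 4 mice and 0.498 to 0.744 within stretches (limma adjusted p = 2.79e-07). Ccl6 had r = 0.693 (permutation p = 3e-05) and rho = 0.483 (permutation p = 5.20e-04), with 0.422 without the 2 farthest livers, 0.438 without the 4 mice and 0.402 to 0.842 within stretches (limma adjusted p = 6.74e-07). Ccl24 had r = 0.704 (permutation p = 2e-05) and rho = 0.391 (permutation p = 0.00507), but 0.349 without the 2 farthest livers, 0.440 without the 4 mice and -0.438 within the stretch of animals 7 to 79, so it did not hold in each stretch. The skin-homing receptor Ccr10 was the gene that fell (r = -0.417, limma adjusted p = 0.0322), at levels mostly below the array median. Over all mice this 1 fall was a smaller share than the 2.71% of all genes. Without the 4 mice it was a larger share than the 0.695%. The other 10 were Ccl5, Ccl7, Ccl2, Ccl4, Ccl3, Ccr1, Ccr2, Cxcr6, Ccl8 and Ccl12. For Ccr1, r was 0.527 in all livers and -0.002 without the 4 mice. In the 45 lower livers of Cxcl13, its level rose with the Kupffer cell score with r = 0.459 (permutation p = 0.00149) and rho = 0.552 (permutation p = 1.40e-04), with 0.394 without the 2 farthest livers and 0.187 to 0.725 within stretches (limma adjusted p = 0.0451).

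With the monocyte and recruited macrophage score (Ly6c2, Chil3, Trem2, Gpnmb and others), 18 genes rose and 3 fell (limma; background 11.1% higher and 9.74% lower). Without the 4 mice the counts were 10 and 1 (background 6.80% and 3.26%), and without animal 235 alone 12 were called. Among the tested genes of the set, the 3 falls over all mice were a smaller share than the 9.74% of all genes. The 1 fall without the 4 mice was likewise a smaller share than the 3.26%. Cxcl16 again had the largest r, 0.873, with rho = 0.613 (both permutation p = 1e-05), 0.671 without the 2 farthest livers, 0.728 without the 4 mice and 0.469 to 0.935 within stretches. Ccl3 had r = 0.862 (permutation p = 1e-05) and rho = 0.464 (permutation p = 7.80e-04), with 0.587 without the 2 farthest livers and 0.608 to 0.954 within stretches. Ccr2, the receptor that brings monocytes into tissue, had r = 0.751 (permutation p = 2e-05) and rho = 0.407 (permutation p = 0.00358), 0.645 without the 2 farthest livers and 0.105 to 0.970 within stretches. The limma adjusted p values were 3.07e-14, 6.84e-14 and 8.72e-09.

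Cxcl12 moved the other way with this score. Its r was -0.552 (permutation p = 0.00387) and its rho -0.525 (permutation p = 1.10e-04), with -0.380 without the 2 farthest livers, -0.466 without the 4 mice and -0.305 to -0.941 within stretches (limma adjusted p = 3.50e-04, and 0.00874 without the 4 mice). The 2 lowest livers for Cxcl12, animals 64 and 235, also had the 2 lowest hepatocyte scores (-3.49 and -1.68); the part of that in the relation was not tested. Ccl27a and Ccr10 fell as well, but not past the threshold without the 4 mice (limma adjusted p = 0.245 and 0.0599). In its 45 lower livers Cxcr4 rose with the macrophage score, with r = 0.579 (permutation p = 4e-05) and rho = 0.555 (permutation p = 9e-05), 0.548 without the 2 farthest livers and 0.504 to 0.853 within stretches (limma adjusted p = 0.00823). There it also rose with the sinusoidal endothelium score (r = 0.475, permutation p = 0.00105; rho = 0.544, permutation p = 1.60e-04; r = 0.526 without the 2 farthest livers; 0.059 to 0.718 within stretches; limma adjusted p = 0.0179).

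The dendritic cell score gave 16 genes higher and none lower (limma; background 5.39% higher), 10 without the 4 mice (background 2.21%) and 9 without animal 235. Animals 235 and 10 had nearly equal top scores (1.94 both). On ranks none of the 47 was called with this score. Cxcl9 (r = 0.511), Ccl5 (0.527), Cxcr5 (0.497), Cxcr3 (0.455), Ccl4 (0.506), Ccl3 (0.699), Ccr2 (0.597), Ccl8 (0.698) and Ccl12 (0.614) were called with and without the 4 mice. Animal 10 is not among those 4. In the livers left without them, Ccl8 read 6.18 in animal 10 and at most 3.20 elsewhere. Ccl12 was there highest in animal 10 as well, at 2.95, below the array median. With the stellate cell and fibroblast score, 8 genes rose and 1, Ccl27a, fell (limma; background 4.44% higher and 3.68% lower), but without the 4 mice limma called none of the 47 (background 0.397% higher), with 8 at an unadjusted p below 0.05. Leaving out animal 235 alone left 1 call. Over all mice the 1 fall was a smaller share of the 47 genes than the 3.68% of all genes.

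The B and plasma cell score gave 1 gene higher, Cxcr5 (limma; background 0.753% higher and 0.0180% lower), and 8 higher without the 4 mice (background 2.76% higher and 0.185% lower). The B cell receptor Cxcr5 had r = 0.790 (permutation p = 1e-05) and rho = 0.423 (permutation p = 0.00242), with r = 0.449 without the 2 farthest livers, animals 10 and 73, 0.881 without the 4 mice and 0.202 to 0.987 within stretches (limma adjusted p = 8.83e-09). Animal 10 had the highest Cxcr5 value, 6.04, and animals 73 and 87 followed at 4.88. Cxcl13, the ligand of Cxcr5, was not called with this score in its 45 lower livers (r = 0.294, limma adjusted p = 0.898).

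Cxcl1 was the single gene called with the acute phase score (limma; background 0.911% higher and 0.280% lower), which covers hepatocyte products such as serum amyloid A, haptoglobin and Lcn2. It had r = 0.701 and rho = 0.649 (both permutation p = 1e-05), with 0.614 without the 2 farthest livers, 0.721 without the 4 mice and 0.701 to 0.808 within stretches (limma adjusted p = 4.93e-06). Animal 73, the highest for Cxcl1, had an acute phase score of 0.71, and animal 179, the next, had the highest score, 2.80. Ccl6 was called as well once the 4 mice were left out. Cxcl2, encoded near Cxcl1 and with the same receptor, was not called.

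With the cholangiocyte score, over bile duct genes such as Krt19 and Epcam, Cx3cl1 was the gene called (limma; background 2.31% higher and 0.144% lower). This was 2.13% of the 47 genes, no larger a share than over all genes. The top cholangiocyte scores were those of animals 96 (3.14) and 161 (2.22), which also had the highest acinar and mammary scores. Cx3cl1 had r = 0.544 (permutation p = 0.00371) and rho = 0.274 (permutation p = 0.0548), with 0.303 without the 2 farthest livers and -0.150 to 0.845 within stretches. Without animal 161, which had the highest Cx3cl1 and also the highest mammary epithelium score, the call was lost. Ccr3 was the gene called with the sinusoidal endothelium score (limma; background 1.43% higher; r = 0.479), and the call was lost without animal 91 or 229. Ccr3, Cxcl16 and Ccl24 were called when the 4 mice were left out (background 3.05%).

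**Figure D3:**
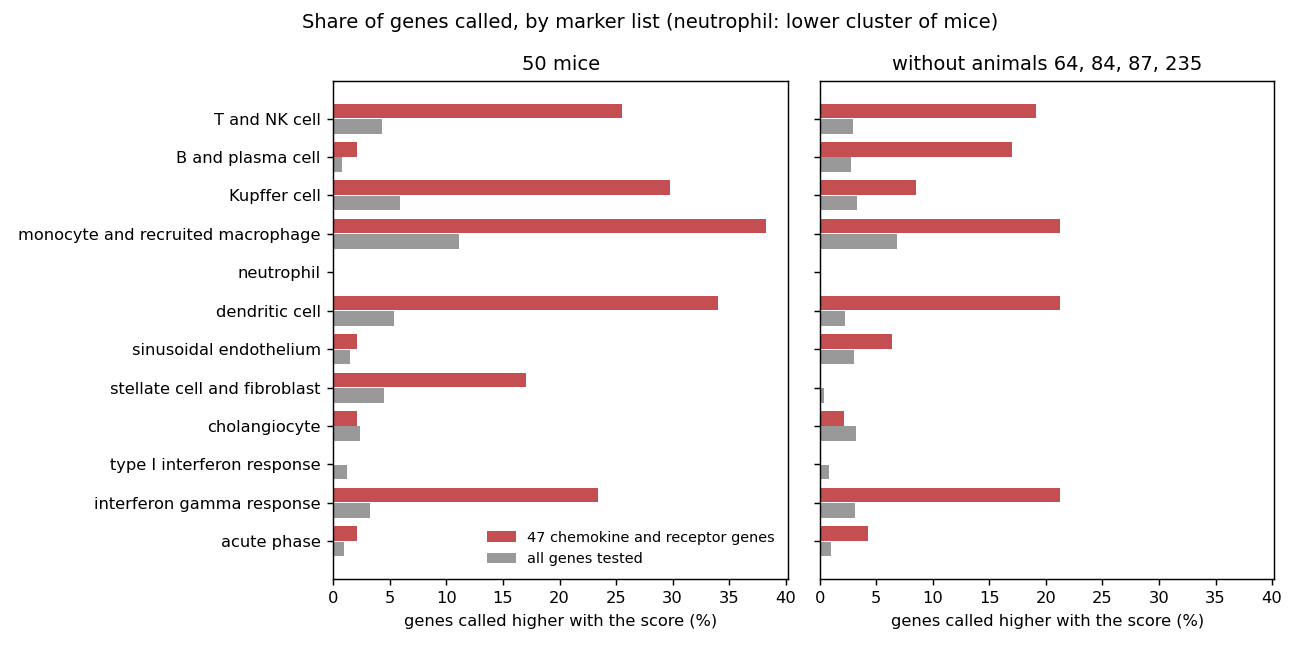
Percent of the 47 genes (red) and of all genes tested (grey) called higher with each marker list score, in all 50 mice (left) and without animals 64, 84, 87 and 235 (right). The neutrophil bars are an exception and come from the lower livers of that score, 41 on the left and 39 on the right. The Kupffer cell bar falls from 14 genes to 4 and the stellate cell bar from 8 to 0, while the interferon gamma bar changes from 11 to 10.

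**Figure D4:**
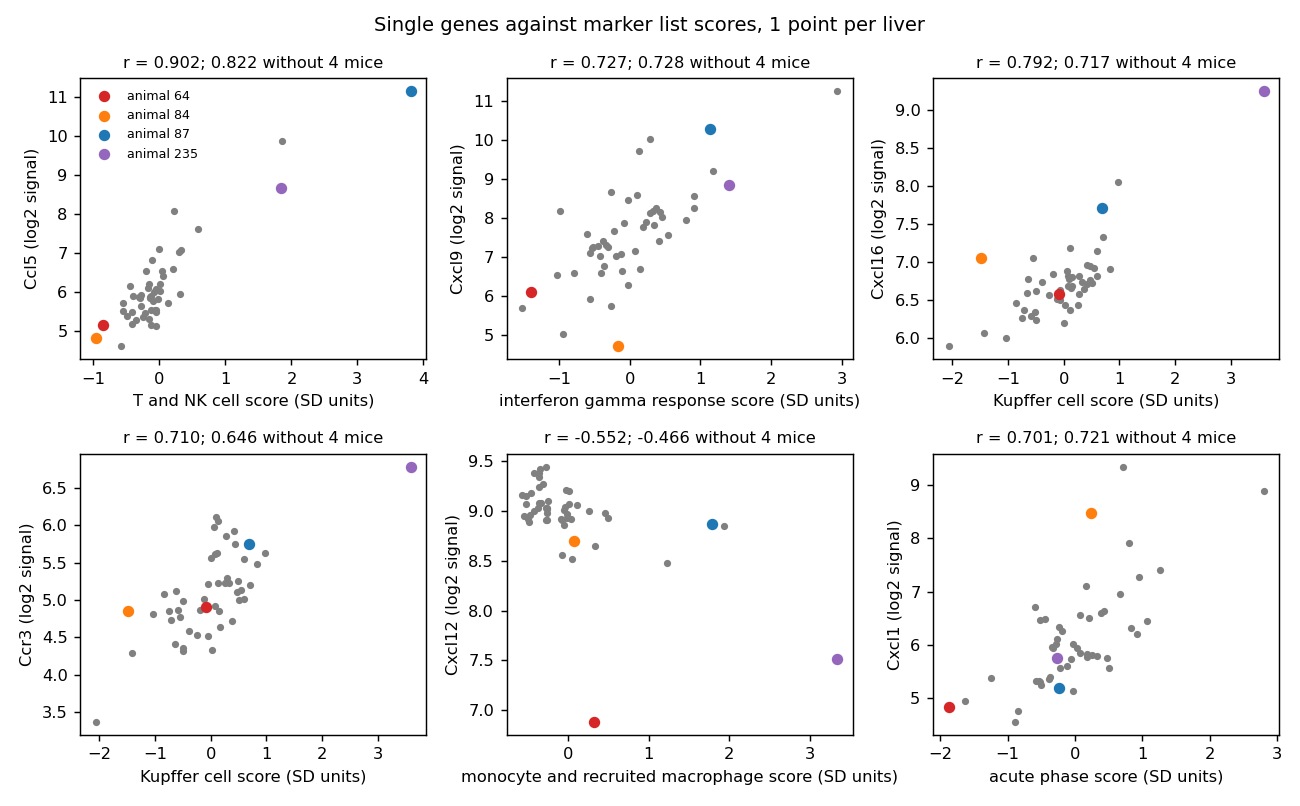
Log2 signal of 6 genes (y axes) against a marker list score in SD units (x axes), 1 point per liver, with the 4 mice that stood apart in colour and Pearson's r with and without them. Ccl5, Cxcl9, Cxcl16, Ccr3 and Cxcl1 rise along the main body of livers, and the lowest Cxcl12 values belong to animals 64 and 235.

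Of 28 measured pairs of a receptor and a ligand known to bind it, 22 had r above 0 and limma called 7 higher. Over all genes the share called higher was 0.104% with Cxcr2, 0.248% with Cxcr4, 0.0541% with Cxcr5, 1.37% with Cxcr6, 1.83% with Ccr10, 0.00451% with Ccr8, 3.31% with Cx3cr1 and 0% with Ccr4, Ccr6 and Ccr9, and it is given below for the receptors of the called pairs. It called none of the 28 without the 4 mice, with 8 at an unadjusted p below 0.05, and ranks called none. In 8 pairs both genes lay above the array median, and 2 of these were called. Ccl24 with Ccr3 had r = 0.548 (permutation p = 8e-05) and rho = 0.402 (permutation p = 0.00403), with r = 0.288 without the 2 farthest livers, 0.427 without the 4 mice and 0.078 to 0.601 within stretches (limma adjusted p = 0.00267; background 3.19% higher with Ccr3). Cxcl9 with Cxcr3 had r = 0.537 (permutation p = 1e-04) and rho = 0.327 (permutation p = 0.0208), with r = 0.356 without the 2 farthest livers, 0.424 without the 4 mice and 0.447 to 0.831 within stretches (limma adjusted p = 0.00312; background 1.93% higher with Cxcr3). The other called pairs joined Ccl3, Ccl6 and Ccl7 to Ccr1 (background 5.24%) and Ccl2 and Ccl12 to Ccr2 (background 11.0%). Leaving out animal 235, the highest liver for Ccr1 and for each of these 5 ligands, left 1 called pair of the 28.

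Other pairs known from lymphoid and myeloid tissue were not called. Cxcl12 and Cxcr4 had r = -0.405 over 45 livers (limma adjusted p = 0.209), Cxcl13 and Cxcr5 0.075 over 45 livers (limma adjusted p = 0.971), Cxcl1 and Cxcr2 0.182 (limma adjusted p = 0.767), Cxcl16 and Cxcr6 0.440 (limma adjusted p = 0.0627) and Cx3cl1 and Cx3cr1 0.236 (limma adjusted p = 0.441).

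Among the 25 unsplit genes above the array median, the 300 pairwise correlations had a median of 0.027, and 28 of them exceeded 0.5, or 5 without the 4 mice. These values share the same 50 arrays and are given as a description. The closest pair was Cxcl9 and Ccl5 (r = 0.805, rho = 0.773, and 0.824 without the 4 mice), which lie on different chromosomes. In the RefSeq gene order of GRCm38.p6, 10 pairs lay in the same run of neighbouring chemokine genes. Their median r was 0.408, from 0.114 to 0.670, beside a median of 0.016 in the other 290 pairs. These medians were 0.209 and 0.018 without the 4 mice, where the highest of the 10, Ccl7 with Ccl2, dropped from 0.670 to 0.030 and Ccl9 with Ccl6 turned from 0.183 to -0.170.

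The genes most like the 6 most variable members above the array median were taken over 50 livers among genes at or above the median level. Beside Ccl5, Cxcl9 was most like BC023105 (r = 0.812) and AW112010 (0.772). Ccl5 was most like the T cell receptor component Cd3g (0.927), the phosphatase gene Ptpn22 (0.881) and the T and NK cell surface gene Cd7 (0.875); Cd3g is also on the T and NK cell list. Cxcl1 was most like Socs3 (0.739), a feedback inhibitor of cytokine signalling that is on the acute phase list, Slc37a1 (0.687) and the fibrinogen gene Fga (0.686). Ccl6 was most like Tnfaip8l2 (0.814), Wfdc17 (0.810) and Alox5ap (0.809), which were 0.560, 0.631 and 0.583 without the 4 mice. Within their 45 lower livers, the genes chosen for Cxcl13 had r of 0.362 (Dram1), 0.542 (Ptprm) and 0.352 (Ms4a6c), and those for Cxcl14 had 0.391 (Cd33), 0.214 (Alox5ap) and 0.273 (Efhd2).

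Of 15 measured genes of chemokine receptor signalling, 13 rose with the Kupffer cell score and 10 without the 4 mice (limma; background 5.85% and 3.25% of all genes higher). Both counts included the G protein subunits Gnai2 and Gnb1, the Rac activators Dock2 and Vav1 and the integrin chains Itgal and Itgb2, through which leukocytes adhere. With the monocyte and recruited macrophage score 13 rose and Dpp4, a protease that trims chemokines, fell (background 11.1% higher and 9.74% lower), and without the 4 mice the counts were 12 and again Dpp4 (background 6.80% and 3.26%). With the T and NK cell score 10 rose, and 5 without the 4 mice: Dock2, Itgal, Itgb2, Rac2 and Vav1 (background 4.29% and 2.92% higher). With the stellate cell and fibroblast score 13 rose and Dpp4 fell (background 4.44% higher and 3.68% lower), but without the 4 mice limma called none of the 15 (background 0.397% higher), with 12 at an unadjusted p below 0.05, and ranks over all mice called none. With the sinusoidal endothelium score the count grew when the 4 mice were left out. There limma called none of the 15 over all mice (background 1.43% higher), with 8 at an unadjusted p below 0.05 and 6 called by ranks. Without the 4 mice 9 rose (background 3.05%). Of 9 chemokines and atypical receptors with other symbols, 4 rose with the T and NK cell score (background 4.29%): the chemerin receptor Cmklr1, the platelet chemokines Pf4 and Ppbp, and Xcl1, the ligand of Xcr1. Cmklr1, Xcl1 and the scavenging receptor Ackr3 did so without the 4 mice. With the macrophage score 5 of the 9 rose (background 11.1%), and 3 without the 4 mice (background 6.80%). The Kupffer cell score gave 3, and 2 without the 4 mice (background 5.85% and 3.25%). Cmklr1 had r = 0.487 with the T and NK cell score, 0.746 with the Kupffer cell score and 0.733 with the macrophage score. For Pf4 these were 0.620, 0.657 and 0.796, and for Xcl1 0.539, 0.409 and 0.452. Ackr2, a scavenger of CC chemokines, rose with the sinusoidal endothelium score. Of 12 inducing cytokine and NF-kB genes, 6 rose with the T and NK cell score: Ifng, Il10, Nfkbia, Relb, Tnf and Tnfaip3 (background 4.29%). Ifng (at most 3.13, SD 0.132) and Il10 (at most 3.04, SD 0.131) lay below the array median in every liver, near background. Without the 4 mice 6 rose as well (background 2.92%), but Ifng (limma adjusted p = 0.530) and Nfkbia (0.678) lost the call and Nfkb2 and Tgfb1 gained it. With the monocyte and recruited macrophage score 9 rose (background 11.1%), and 6 of them without the 4 mice (background 6.80%). Ranks over all mice called 1 of these 12 genes with the T and NK cell score and 1 with the macrophage score. Of the 15 signalling genes, ranks called 3 with the T and NK cell score, 9 with the Kupffer cell score and 14 with the macrophage score. Of the 9 with other symbols, ranks called 1 with the T and NK cell score, 1 with the Kupffer cell score and 3 with the macrophage score.

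Animal number, whose meaning the labels do not explain, was called for none of the 47 genes by limma, beside 3.52% of all genes, and for none without the 4 mice, beside 5.01%. Over all mice an unadjusted p below 0.05 was found for 3, and ranks called none. The lowest adjusted p was that of Cxcl5, which attracts neutrophils and lay below the array median in every liver (limma adjusted p = 0.0744), and leaving out animal 91 gave 1 call.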

How the data were processed

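Total RNA of each liver (100 ng, per the labels' protocols) was amplified and hybridised to 1 Affymetrix array. The deposited values are on the log2 scale. RMA and, for software, Expression Console 1.4.1 (Affymetrix) are named in the submitters' processing notes; the build is not given in the sources used here. Of 41345 probe sets, 23521 had 1 gene symbol, 1814 several and 16010 none in the platform annotation; names and gene order came from RefSeq (GRCm38.p6). For each gene the single-symbol probe set with the highest median was used, and every member could be named. Of the CXC ligands, 1 is not reported here.

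Scores were mean z values over each list. Levels were fitted on each score, receptor level or animal number with limma 3.58.1 (R 4.3.3, eBayes with trend) over all genes outside the list, adjusted by Benjamini-Hochberg. Pearson's r and Spearman's rho had two-sided permutation p values (100000 permutations). Items that a 2-component normal mixture split (at least 5 mice, components 4 SD apart, BIC gain over 10) were fitted within their lower mice. Mice stood apart beyond 3 interquartile ranges of array correlation. Nothing says more than that each sample is a separate mouse; the number of arrays limits the precision. On simulated data for the T and NK cell score (22180 genes), slopes of 0.1, 0.2 and 0.4 log2 units were recovered for 9%, 69.5% and 97% of 200 changed genes. The simulated noise was normal and independent between genes. Genes that move together in a few livers were not simulated, so recovery in the real data may differ. Members, lists and stretches of animal numbers were chosen with earlier results of these data known. Alternatives were array centring, ranks, probe set means, a level filter, stretches as a block and mice left out.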

Additional observations from a re-analysis of the deposited data

How the results depend on the processing

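No paired analysis was possible because the labels give 1 group. With the median level of all named genes as the line, 23 genes of the set lay above it in place of 28. Counts below are of the 47 genes, in both directions. Apart from leaving out the 4 mice, the share over all genes is not given for these settings. The counts therefore describe dependence on the setting, not a trait of the set. Without the 4 mice that stood apart the counts became 8 (B and plasma cell), 5 (Kupffer cell), 11 (monocyte and recruited macrophage), 10 (dendritic cell), 3 (sinusoidal endothelium), 0 (stellate cell), 2 (cholangiocyte) and 2 (acute phase), and 0 receptor and ligand pairs. On ranks they were 4 (T and NK cell), 0 (B and plasma cell), 4 (Kupffer cell), 8 (macrophage), 0 (dendritic cell), 0 (stellate cell), 0 (cholangiocyte), 3 (interferon gamma) and 0 pairs. Testing only genes at or above the median level gave 7 (T and NK cell), 9 (Kupffer cell), 2 (endothelium), 5 (stellate cell), 0 (cholangiocyte), 1 (type I interferon) and 7 (interferon gamma), with fewer genes tested. Stretches as a block gave 0 for endothelium and 1 for type I interferon. Centred arrays gave 4 for stellate cells. Without the 7 acinar or mammary far-out mice the stellate count was 14 and the cholangiocyte count 2. The cause of the other changes was not tested.

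Leaving out each mouse in turn, an alternative chosen after seeing the data, gave 0 to 1 calls for animal number (animal 91), 12 to 18 for T and NK cells, 1 to 6 for B cells (above 1 without animal 73, 79, 87, 101, 170, 235, 257 or 270), 4 to 18 for Kupffer cells, 12 to 23 for macrophages, 9 to 18 for dendritic cells and 1 to 13 for stellate cells (each lowest without animal 235), 0 to 2 for endothelium (0 without animal 91 or 229, 2 without 10, 161, 235 or 258), 0 to 1 for cholangiocytes (animal 161), 0 to 1 for type I interferon (1 without 7, 64, 87, 229, 289 or 292), 5 to 12 for interferon gamma (animal 10), 0 for neutrophils, 1 for acute phase and 1 to 8 pairs (animal 235).

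Of 95 single relations called, 16 kept direction and call in every setting run for them: Ccl24, Ccl6, Ccr3 and Cxcl16 with the Kupffer cell score, Ccl3, Ccr1, Ccr2, Cxcl16 and, downward, Cxcl12 with the macrophage score, Ccl5, Cxcl9 and Cxcr3 with the T and NK cell score, Ccl5, Cxcl9 and Cxcr6 with the interferon gamma score, and Cxcl1 with the acute phase score. Ranks weakened 73 and leaving out the 4 mice 47. Moderated t reversed for Ccl7 with Kupffer cells (-0.26), Ccl24 with macrophages (-0.85) and Ccl24 with dendritic cells (-0.17) without the 4 mice, and on ranks for Ccl24 with macrophages (-0.39) and Ccl2 with dendritic cells (-0.30). Genes near or below the array median are near background, where small differences are not detectable.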
